A study of Caenorhabditis elegans with 12 samples.

Results

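The cytosolic chaperonin CCT, also called TRiC, was examined through the mRNA of its subunits cct-1 to cct-8 in Caenorhabditis elegans. The members were taken by gene name alone, though the family and the tests were chosen with earlier results of these data known. They make up 8 of the 22010 genes in the deposited tables, and all 8 were among the 15386 genes with enough reads to be tested. CCT is an ATP-driven folding machine built of stacked rings, in which each of the related subunits holds its own place. Nascent actin and tubulin are its best known clients, prefoldin hands such clients over to it, and proteins with WD40 repeats also pass through it. All subunits are needed for a complete ring, so the question for these genes is whether they moved together, by how much, and whether affl-2 altered this.

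Whole animals at the L4 larval stage were compared in 4 groups of 3 libraries each. The wild type was strain N2, and the mutant was strain PS8060, which carries the allele sy975 of affl-2, a gene related to the AFF family of transcription elongation scaffolds. The labels do not describe the lesion. For each library 250 animals were picked. Plates of either genotype were sealed and held for 30 min in a water bath at 33 °C (heat shock) or at a room temperature of 20 °C (no heat shock), and polyadenylated RNA was sequenced as single 50-nt reads. The labels do not say whether the libraries of a group came from separate cultures, so p-values here describe the spread among these libraries and may hold technical spread only.

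The libraries held 17.97 to 22.66 M estimated counts. Scaling factors by TMM (trimmed mean of M-values, a correction for RNA composition) ran from 0.847 in heated N2 replicate 3 to 1.151 in unheated affl-2 replicate 2. affl-2 mRNA stood at 21.0 to 25.0 CPM (read counts put on one library size with these factors) in N2 without heat shock and 25.2 to 30.0 CPM with it. In the mutant it stood at 15.2 to 19.6 CPM without and 16.3 to 19.2 CPM with heat shock. Markers of germline, oocyte, sperm, muscle, pharynx, neuron, intestine and hypodermis were detected in all groups, none of them at 0 throughout a group. In such whole-animal RNA, fewer cells of a type and less RNA per cell cannot be told apart.

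The CCT genes lie on 4 chromosomes (build WBcel235, coordinates from the Ensembl release 115 annotation). Chromosome II carries cct-1 (the alpha subunit, T05C12.7, chrII:8185443-8187601, plus strand, 5 exons), cct-2 (beta, T21B10.7, chrII:8927741-8929815, plus strand, 4 exons), cct-3 (gamma, F54A3.3, chrII:2233540-2243539, plus strand, 8 exons) and cct-4 (delta, K01C8.10, chrII:8283667-8285711, plus strand, 5 exons). Chromosome III carries cct-5 (epsilon, C07G2.3, chrIII:4499188-4508114, minus strand, 8 exons) and cct-6 (zeta, F01F1.8, chrIII:5853530-5855687, minus strand, 6 exons). The eta gene cct-7 (T10B5.5, chrV:1872246-1875505, plus strand, 4 exons) and the theta gene cct-8 (Y55F3AR.3, chrIV:1087108-1093920, minus strand, 7 exons) are the only CCT genes on their chromosomes. Exon numbers are after merging the exons of all transcripts of a gene. Each gene had between 5432 and 16593 estimated counts in every library. The gene zig-11 overlaps cct-7 on the other strand and had up to 4984 counts in a library, and T05C12.8 overlaps cct-1 with at most 20. The library kit keeps no strand, so reads from the overlaps cannot be told apart. zig-11 was chosen for naming because of this overlap. Its log2 change with heat shock was 0.03 ± 0.11 (SE, adjusted p = 0.878, edgeR) in N2 and 0.15 ± 0.11 (adjusted p = 0.336) in affl-2.

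Heat shock raised the mRNA of all 8 CCT subunits in N2, each by a modest and similar amount. The smallest rise was that of cct-7, at 1.22-fold (95% interval 1.07 to 1.38), and the largest that of cct-6, at 1.43-fold (1.25 to 1.64). Across all genes tested, 21.5% passed in this comparison and 9.52% passed as higher. Among the 490 genes at least as abundant as the least abundant CCT gene, 19.2% passed as higher. The median log2 change of the CCT genes was 0.39, beside 0.13 for those abundant genes and −0.01 for all genes.

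The values behind this were close together within groups. cct-6 stood at 393, 355 and 379 CPM in the unheated N2 libraries and at 534, 521 and 562 CPM in the heated ones. Every heated library lay above every unheated one. The log2 change of cct-6 was 0.52 ± 0.09 (SE, adjusted p = 0.000892, edgeR quasi-likelihood test). cct-7 moved from 460, 445 and 451 CPM to 536, 550 and 563 CPM, again with no overlap, and its log2 change was 0.28 ± 0.09 (adjusted p = 0.0287, edgeR). cct-5, the most abundant subunit mRNA, went from 639, 556 and 625 CPM to 817, 814 and 881 CPM. Its log2 change of 0.46 ± 0.09 (adjusted p = 0.00262, edgeR) matched that of cct-4 (adjusted p = 0.00252), which went from 302 to 320 CPM without heat shock to 405 to 467 CPM with it. cct-1, cct-2, cct-3 and cct-8 rose by log2 changes of 0.35, 0.40, 0.39 and 0.37, with adjusted p-values (edgeR) between 0.00612 and 0.0115. For all 8 members the heated and unheated libraries did not overlap in CPM, which held in the higher direction for 19.9% of all genes tested. Nor did they overlap in TPM (the authors' abundance unit, which is scaled for transcript length and carries no TMM factor), where the rises ran from 1.11-fold for cct-7 to 1.31-fold for cct-6 and 8.96% of all genes were higher with no overlap.

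**Figure D1:**
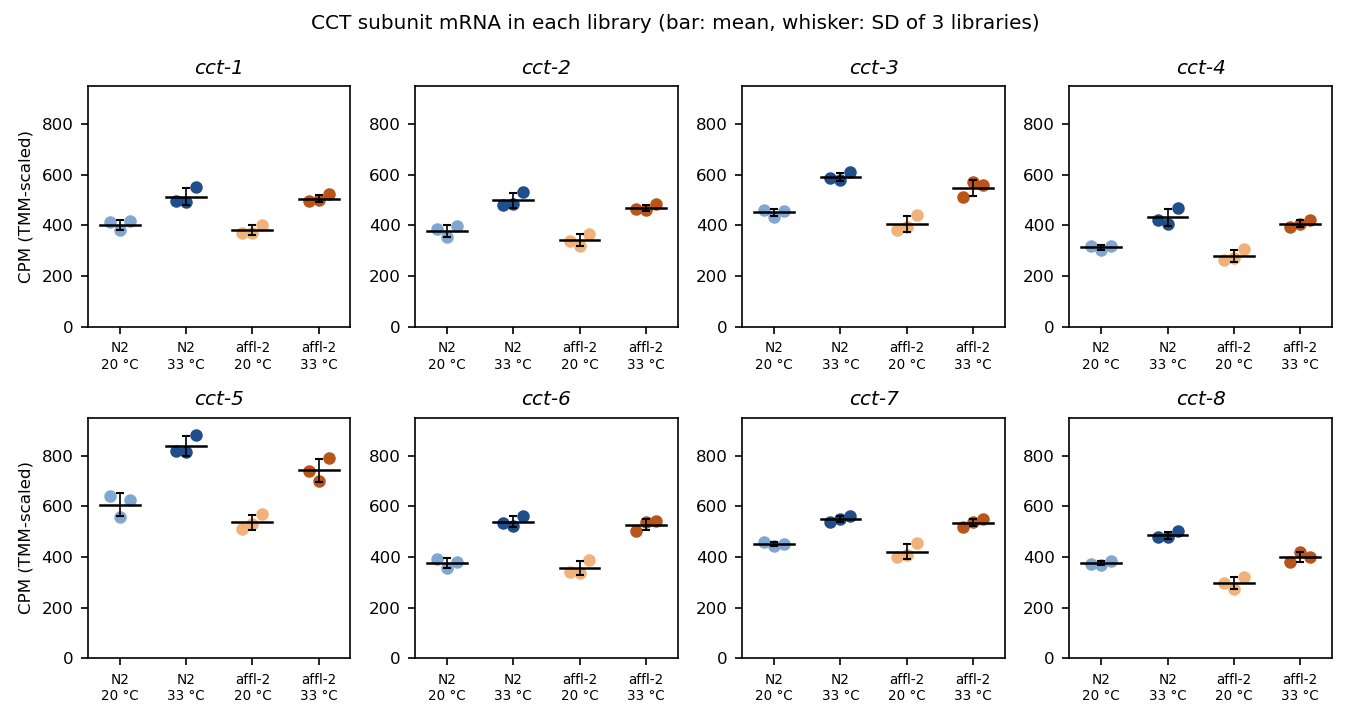
Level of each CCT subunit mRNA in every library, in CPM after TMM scaling (y axis, linear, from 0), by group (x axis). Points are libraries, bars are means and whiskers are SDs of 3 libraries. In every panel the heated libraries lie above the unheated libraries of the same genotype, and cct-8 lies lower in affl-2 than in N2 at both temperatures.

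The size of these rises depended on how the libraries were scaled. Scaling by library size alone lowered the median of all genes by 0.182 (a log2 shift of −0.182), and the CCT log2 changes in N2 then ran from 0.10 to 0.34. All 8 stayed above 0, while 3 of them passed (cct-4, cct-5 and cct-6). With that scaling 28.6% of all genes passed and 5.92% passed as higher. Without unheated N2 replicate 2 or without heated N2 replicate 3, cct-1 no longer passed, and cct-7 was lost when either of these, unheated N2 replicate 3 or another heated N2 library was left out. The largest adjusted p (edgeR) on leaving out 1 library was 0.0508 for cct-1 and 0.0895 for cct-7, and the other members kept passing. Summed markers of body wall muscle, a tissue rich in actin and myosin, moved with heat shock in N2 as well, from between 8588 and 12384 CPM to between 17019 and 18699 CPM (7 of 7 markers detected). Those of pharynx went from 655.0 to 1036 CPM up to 1161 to 1329 CPM (4 of 4 detected). Of them 2 passed as higher and 0 as lower (edgeR), with log2 changes from −0.12 to 0.64. Oocyte markers went from 1287 to 1934 CPM down to 702.0 to 1255 CPM (6 of 6 detected). None of the 6 passed (edgeR, median log2 change −0.73). The part of these tissue markers in the CCT changes was not tested.

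The same 8 genes rose with heat shock in affl-2 mutants. The log2 changes were 0.41 for cct-1, 0.46 for cct-2, 0.43 for cct-3, 0.54 for cct-4, 0.47 for cct-5, 0.57 for cct-6, 0.35 for cct-7 and 0.42 for cct-8, each ± 0.09 (SE), with adjusted p-values from 0.000526 to 0.00949 (edgeR). In folds this ran from 1.27 for cct-7 to 1.48 for cct-6. The median of the 8 was 0.44. Of all genes tested 21.4% passed in affl-2 and 10.6% passed as higher, with 27.8% higher among the 490 abundant genes, whose median was 0.24.

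cct-6 went from 342, 336 and 388 CPM in unheated mutants to 502, 538 and 541 CPM in heated ones. cct-7 went from 398, 409 and 454 CPM to 520, 536 and 550 CPM. Neither pair of groups overlapped, nor did those of the other members, against 18.0% of all genes in this direction in CPM and 8.43% in TPM, where the CCT groups did not overlap either. cct-5 went from 512, 528 and 569 CPM to 737, 698 and 789 CPM, and cct-4 from 281 ± 23.8 to 407 ± 12.7 CPM (mean ± SD, n = 3). With library size alone as the scaling, which shifted all genes by −0.142 here, 7 of the 8 passed and cct-7 did not. Of all genes 23.1% passed with that scaling and 6.04% passed as higher. Leaving out unheated affl-2 replicate 1 also ended the call of cct-7 (adjusted p = 0.0544, edgeR). Body wall muscle markers summed to 8469 to 9372 CPM in unheated and 12655 to 16973 CPM in heated mutants. Those of pharynx went from 650.0 to 692.0 CPM up to 878.0 to 1006 CPM. Of the 4 pharynx markers 2 passed as higher and 0 as lower (edgeR), beside 10.6 and 10.8% of all genes. Their log2 changes ran from −0.72 to 0.56. Those of oocytes went from 1294 to 2285 CPM down to 892.0 to 1172 CPM, where 1 of 6 passed as lower (edgeR). The neuron sum went from 406.0 to 467.0 CPM up to 479.0 to 530.0 CPM, but its 8 markers went both ways. Of them 2 passed as higher and 3 as lower, with a median log2 change of −0.3 (edgeR). In N2, 1 passed as higher and 5 as lower (median −0.48). All 8 neuron markers and all markers of the other tissues were detected. Their part in the CCT changes was not tested.

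The heat shock effect on the CCT genes was not found to differ between the genotypes. The interaction, which is the log2 change in affl-2 minus that in N2, lay between 0.00 for cct-5 and 0.08 for cct-4. None of the 8 passed, with adjusted p-values of 0.957 to 1.0 (edgeR), and none had an unadjusted p under 0.05. DESeq2 also passed 0. Across all genes 0.715% passed this test, and 2.45% of the 490 abundant genes. The 95% intervals of the 8 interactions together spanned −0.28 to 0.36. With 3 libraries per group, interactions of either sign within that span are not separated from 0.

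**Figure D2:**
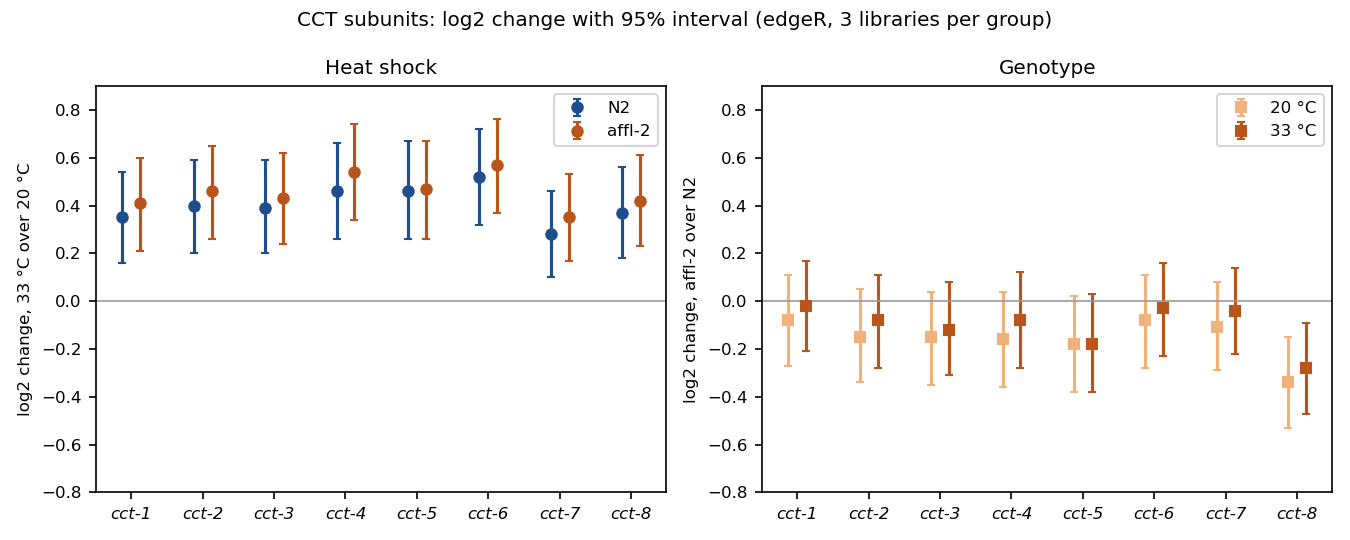
Log2 change of each CCT subunit (x axis) with heat shock in each genotype (left) and between genotypes at each temperature (right), on the same y axis in log2 units. Points are edgeR estimates and whiskers are 95% intervals from 3 libraries per group. All 16 heat shock intervals lie above 0, and of the genotype intervals those of cct-8 lie below 0 at both temperatures.

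Between the genotypes, cct-8 was the single CCT subunit that passed the test, at both temperatures and lower in affl-2. Without heat shock it stood at 374, 368 and 385 CPM in N2 and at 298, 273 and 320 CPM in affl-2. The groups did not overlap in CPM, which held in the lower direction for 15.6% of all genes. The log2 change was −0.34 ± 0.09 (SE, 95% interval −0.53 to −0.15, adjusted p = 0.0209, edgeR), or 0.79-fold. After heat shock cct-8 stood at 477, 477 and 501 CPM in N2 and at 379, 418 and 398 CPM in affl-2. There too the affl-2 libraries were all lower, and the log2 change was −0.28 ± 0.09 (95% interval −0.47 to −0.09, adjusted p = 0.0377, edgeR).

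The other 7 subunits did not pass. Their log2 changes ran from −0.18 for cct-5 to −0.08 for cct-1 and cct-6 without heat shock, with adjusted p-values (edgeR) of 0.235 to 0.606. After heat shock they ran from −0.18 for cct-5 to −0.02 for cct-1, with adjusted p-values of 0.192 to 0.872. Of all genes tested, 14.0% passed without heat shock (7.29% lower) and 19.7% after it (9.57% lower). Among the 490 abundant genes the shares that passed as lower were 28.4 and 25.7%, with medians of −0.23 and −0.15. After heat shock cct-3 and cct-5 also had groups that did not overlap in CPM, lower in affl-2, which with cct-8 makes 3 of 8 members beside 17.6% of all genes.

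The genotype values rest on the scaling. Library size alone raised the median of all genes by 0.183 without and 0.223 after heat shock. Under it 0 CCT genes passed, beside 22 and 37% of all genes (17.8 and 31.6% as higher in affl-2), and the median over the CCT genes changed from −0.15 to 0.03 without heat shock and from −0.08 to 0.14 after it. cct-8 kept a negative value there, −0.16 and −0.06. In the deposited TPM cct-8 was 0.95-fold without and 0.96-fold after heat shock, with overlapping groups. In that unit cct-1 and cct-7 without heat shock, and cct-1, cct-2, cct-4, cct-6 and cct-7 after it, lay higher in affl-2 with no overlap, as did 35.6 and 38.7% of all genes. The cct-8 call without heat shock was lost when unheated N2 replicate 1 or 3 or unheated affl-2 replicate 1 or 2 was left out (adjusted p up to 0.11, edgeR). After heat shock it was lost without unheated N2 replicate 3, any heated N2 library, or heated affl-2 replicate 1 or 3 (up to 0.159). Markers of the germline summed to 3074 to 3352 CPM in unheated N2 and 2148 to 2915 CPM in unheated affl-2 (13 of 13 detected). Those of the hypodermis summed to 1456 to 1801 CPM and 635.0 to 1183 CPM (6 of 6 genes at 1 CPM or more in every unheated N2 library, 5 of 6 in every unheated affl-2 library), and those of the intestine to 3985 to 4850 CPM and 2641 to 3313 CPM (7 of 7 detected). The intestine sum was lower in affl-2, while the median log2 change of its 7 markers was 0.09. Of these markers 1 passed as lower and 0 as higher (edgeR). After heat shock the germline markers summed to 3189 to 3724 CPM in N2 and 2222 to 3062 CPM in affl-2. Hypodermis stood at 1790 to 2476 CPM and 956.0 to 1192 CPM there (6 of 6 detected), and intestine at 3398 to 4207 CPM and 2082 to 2812 CPM. The summed CPM of the heated groups also did not overlap for body wall muscle and pharynx, lower in affl-2, at the levels given above. Of the 7 muscle markers 0 passed there (edgeR), with log2 changes from −0.36 to 0.27 (median −0.13). Of the 4 pharynx markers 1 passed as lower, with log2 changes from −0.8 to 0.13. Intestine markers after heat shock had a median log2 change of 0.27, with 1 passing as higher and 1 as lower (edgeR). Sperm markers were higher in heated affl-2, at 536.0 to 664.0 CPM against 436.0 to 490.0 CPM in N2 (9 of 9 detected), as were those of neurons, at 479.0 to 530.0 CPM against 420.0 to 458.0 CPM. Their part in the cct-8 difference was not tested.

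Ratios within a library need no scaling factor, so each subunit was also set against the geometric mean of the other 7. Such ratios show unequal change among the subunits and cannot show that any of them stayed constant. A ratio on this log2 scale was tested for heat shock and for genotype by an exact two-sided permutation over the 12 libraries, within the other factor (400 arrangements, smallest possible p 0.005), with p-values adjusted over the 8 ratios of each factor.

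With heat shock the subunits did not rise quite equally. Relative to the others, cct-6 gained 9.51% (log2 0.131, exact permutation p = 0.005, adjusted p = 0.0133) and cct-4 gained 5.49% (log2 0.077, p = 0.01, adjusted p = 0.02). cct-7 fell by 8.61% (log2 −0.13, exact permutation p = 0.005, adjusted p = 0.0133) and cct-1 fell by 4.12% (log2 −0.061, exact permutation p = 0.005, adjusted p = 0.0133). The log2 ratio of cct-6 was −0.117, −0.167 and −0.176 in unheated N2 and 0.00, −0.026 and −0.034 in heated N2. In affl-2 it was −0.071, −0.086 and −0.047 without and 0.035, 0.092 and 0.056 with heat shock. Heated libraries were higher than unheated ones in both genotypes, with no overlap. The log2 ratio of cct-7 went the other way, from 0.143, 0.203 and 0.111 to 0.006, 0.062 and −0.03 in N2 and from 0.179, 0.237 and 0.21 to 0.095, 0.084 and 0.086 in affl-2, again with no overlap. The part of reads from the overlap with zig-11 in the cct-7 ratio was not tested. For cct-2, cct-3, cct-5 and cct-8 the ratio changed by −0.001, −0.021, 0.041 and −0.037 and did not pass.

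With genotype the largest shift was that of cct-8, whose ratio to the others was 13.4% lower in affl-2 (log2 −0.208, exact permutation p = 0.005, adjusted p = 0.0133). The log2 ratio of cct-8 was −0.202, −0.109 and −0.151 in unheated N2 and −0.3, −0.429 and −0.365 in unheated affl-2. After heat shock it was −0.186, −0.172 and −0.223 in N2 and −0.427, −0.323 and −0.447 in affl-2. The affl-2 values were the lower ones at either temperature, with no overlap, and the mean difference was −0.21 without and −0.206 after heat shock. The ratios of cct-1, cct-6 and cct-7 were higher in affl-2 by 0.093, 0.083 and 0.066 (adjusted p = 0.0133, 0.0133 and 0.04, exact permutation).

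A fall of 1 subunit raises the ratios of all the others, and the choice of denominator decided some of these calls. With the median of the other 7 subunits in place of their geometric mean, an alternative chosen after seeing the data, the genotype calls were cct-8 (log2 −0.255) and cct-5 (−0.106), each at an adjusted p of 0.04 (exact permutation). cct-1 then gave 0.029, cct-6 −0.008 and cct-7 −0.001, and none of these 3 passed. Under the same alternative cct-1, cct-6 and cct-7 passed for heat shock and cct-4 did not (log2 0.056, adjusted p = 0.11, exact permutation). Permuting only within pairs of libraries with the same replicate number, a replicate block, leaves 64 arrangements and a smallest possible p of 0.0312, and 0 subunits passed for either factor. The smallest adjusted p with that pairing was 0.0833 for heat shock and 0.0625 for genotype (exact permutation, 0.0833 with the numbers taken from the files).

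**Figure D3:**
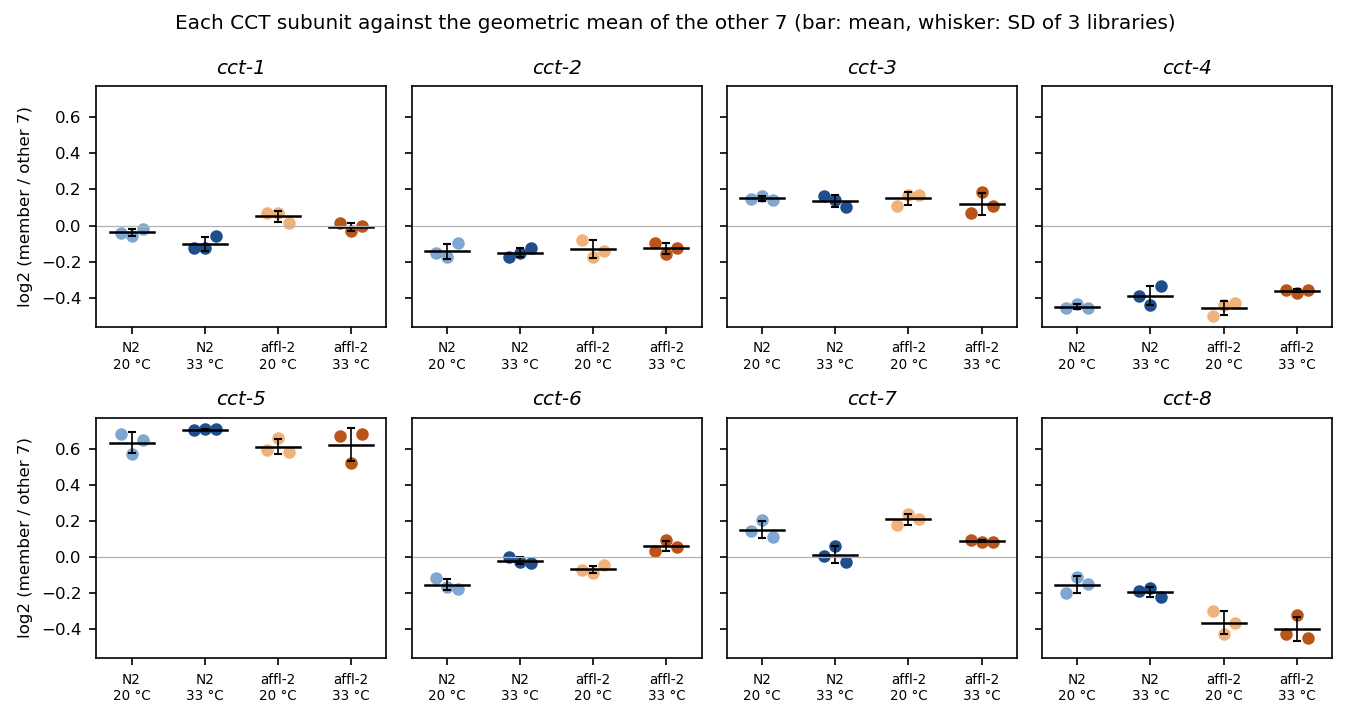
Log2 ratio of each CCT subunit to the geometric mean of the other 7 (y axis, log2 units) in every library, by group (x axis). Points are libraries, bars are means and whiskers are SDs of 3 libraries. cct-6 lies higher and cct-7 lower in heated than in unheated libraries of either genotype, and cct-8 lies lower in affl-2 at both temperatures.

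Levels of different subunits can be compared only per length, for which the deposited TPM of a gene's transcripts were added up. The family summed to 1631 ± 34.3 TPM in N2 without heat shock and 1970 ± 55.7 TPM with it (mean ± SD, n = 3). In affl-2 the sums were 1740 ± 101 and 2112 ± 164 TPM. cct-5 was the highest subunit in every group, at 331 ± 9.39 TPM in unheated N2 and 413 ± 12.6 TPM in heated N2. It held 20.3 ± 0.448% of the summed TPM in unheated N2. The lowest was cct-3 in N2 (160 ± 4.35 TPM without and 191 ± 7.76 TPM with heat shock) and cct-8 in affl-2 (153 ± 10.5 and 185 ± 26.1 TPM). The highest subunit exceeded the lowest 2.07-fold in unheated N2 and 2.27-fold in affl-2 at either temperature. The subunits ranked from place 407 (cct-5) to 862 (cct-8) among the 22010 genes by mean TPM.

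The order below cct-5 was in large part not resolved. In unheated N2 it ran cct-7, cct-1, cct-2, cct-6, cct-4, cct-8, cct-3. There the libraries of cct-7 and cct-1 overlapped, as did those of cct-2 and cct-6, of cct-4 and cct-8, and of cct-8 and cct-3. In heated N2 cct-6 came after cct-5, overlapping with cct-7, and cct-7 with cct-1. The deposited TPM divide reads among transcripts of different lengths, so the order at the low end depends on that division. With counts divided by the effective length of the longest transcript instead, cct-8 was lowest in every group (9.32% of the family in unheated N2 and 8.16% in unheated affl-2), and cct-5 remained highest.

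**Figure D4:**
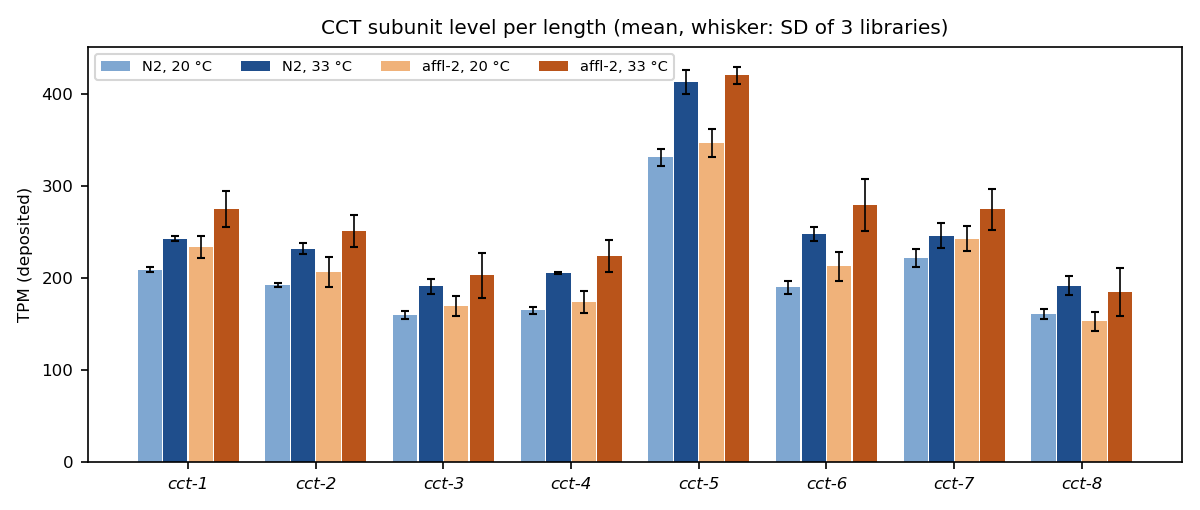
Level of each CCT subunit per length, in deposited TPM summed over its transcripts (y axis, linear, from 0). Bars are means of 3 libraries for each of the 4 groups and whiskers are SDs. cct-5 stands above the other subunits in every group.

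The pair cct-6 and cct-7 was singled out after its values were seen. The TPM of cct-6 over that of cct-7 was 0.83 to 0.88 in unheated N2 and 0.98 to 1.03 in heated N2. In affl-2 it was 0.85 to 0.89 without and 0.99 to 1.04 with heat shock. In neither genotype did the heated and unheated libraries overlap. The part of the zig-11 overlap in these cct-7 values was not tested.

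Across the 12 libraries the subunits varied together, but not only with each other. Pearson's r of log2 CPM over the 28 pairs of subunits had a median of 0.973 and ran from 0.843 (cct-1 with cct-8) to 0.989 (cct-4 with cct-7). With the mean of the other 7, r ran from 0.898 (cct-8) to 0.993 (cct-4). Genes outside the family reached 0.982 with the mean of the 8, as given below. These points share the heat shock groups and the scaling factor of each library. After the group means were taken out, r with the mean of the other 7 ran from 0.72 (cct-8) to 0.953 (cct-6). This step leaves the scaling factor of each library in place, and the part of that factor in these r was not tested. Unheated N2 replicate 2 had the lowest CPM of its group for all 8 subunits. Heated N2 replicate 3 (TMM factor 0.847) and unheated affl-2 replicate 3 (1.085) had the highest of their groups for all 8. In TPM the library that stood highest for all 8 was heated affl-2 replicate 2, and unheated affl-2 replicate 2 stood lowest for all 8. Heated N2 replicate 3 was lowest of its group in TPM for 5 subunits and highest for 1. Unheated affl-2 replicate 3 was highest for 7.

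Outside the family, the genes whose log2 CPM followed the mean of the 8 subunits most closely were sought among 9580 genes with an average log2 CPM of at least 3. They were mbf-1, a transcriptional coactivator gene (r = 0.982), Y37H9A.1 (0.982), the proteasome subunit gene rpn-3 (0.979), ippk-1, for an inositol phosphate kinase (0.978), abcf-2, for an ABC-type ATPase (0.976), and gsr-1, for glutathione reductase (0.976). They were followed by the autophagy gene atg-7 (0.975), trhr-1, for a neuropeptide receptor (0.975), the HSP40 cochaperone gene dnj-19 (0.972) and elpc-4, for an Elongator subunit (0.971). Each r is over 12 libraries, which share groups and scaling. All 10 rose with heat shock in both genotypes (edgeR), beside 9.52% of all genes in N2 and 10.6% in affl-2. This was favoured by the choice of genes, as the subunit mean they were matched to also rose, and is no separate finding. The log2 changes of the 10 genes in N2 ran from 0.42 for abcf-2 to 1.83 for trhr-1.

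Prefoldin, the cochaperone that delivers clients to CCT, did not change detectably with heat shock. None of its 6 subunit genes pfd-1 to pfd-6 passed in any of the 5 comparisons (edgeR). Of all genes 21.5 and 21.4% passed with heat shock in N2 and affl-2. Between genotypes 14.0 and 19.7% passed without and after heat shock, and 0.715% in the interaction. With only 6 genes, a count of 0 is not set apart from these shares. With heat shock in N2 pfd-1 gave a log2 change of 0.20 (adjusted p = 0.14), pfd-5 0.18, pfd-2 0.04, pfd-4 0.03, pfd-3 0.00 and pfd-6 −0.09. In affl-2 the values ran from −0.10 for pfd-6 to 0.28 for pfd-5 (adjusted p = 0.0535). Their medians were 0.03 in N2 and 0.13 in affl-2, beside −0.01 and 0.03 for all genes, and with library size alone they were −0.15 and −0.01, again with 0 passing. hsp-60, the chaperonin of the mitochondrial matrix, rose in N2 by a log2 change of 0.36 ± 0.11 (SE, adjusted p = 0.0275, edgeR). In affl-2 it gave 0.14 ± 0.11 (adjusted p = 0.374), its level after heat shock was lower in affl-2 than in N2 by −0.32 ± 0.11 (adjusted p = 0.0473), and its interaction was −0.21 ± 0.15 (adjusted p = 0.905). With library size alone hsp-60 passed in none of these comparisons.

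Genes of CCT clients were set against all genes, of which 9.52% rose and 12% fell with heat shock in N2. Of 15 tubulin genes tested, 1 rose in N2 (tbg-1, gamma-tubulin, log2 0.35) and 2 fell (tbb-4, a beta-tubulin, by 0.82, and tba-6, an alpha-tubulin, by 0.98). In affl-2, 4 rose and 2 fell, beside 10.6 and 10.8% of all genes, and with library size alone 0 rose in either genotype while 3 fell in N2 and 2 in affl-2. In the interaction 0 of the 15 passed (edgeR). The alpha-tubulin gene tba-1, expressed broadly, gave 0.22 in N2 (adjusted p = 0.124, edgeR) and 0.35 in affl-2 (adjusted p = 0.0194). Of 5 actin genes 0 passed in N2, with values from −0.23 for act-5 to 0.28 for act-2 (adjusted p = 0.0574, edgeR). In affl-2, 3 of the 5 rose, by 0.35 for act-2, 0.42 for act-4 and 0.39 for act-1. The interaction passed for 0 of the 5, and with library size alone 0 rose and act-5 fell in both genotypes. The actin genes are similar in sequence, and act-1 to act-4 near-identical, so reads can be divided between them and the single values are uncertain. Of the 6 tubulin folding cofactor genes, 0 passed in N2 and tbca-1 rose in affl-2 (log2 0.39, adjusted p = 0.0141, edgeR), against 0.08 in N2, which is an interaction of 0.30 that did not pass (adjusted p = 0.754). With library size alone tbca-1 did not pass in affl-2 either. The cofactor genes tbce-1, tbcd-1 and tbcc-1 gave 0.20, 0.13 and −0.04 in N2. Of 5 genes for WD40 and other clients, fzr-1, an activator of the anaphase-promoting complex, rose in N2 by 0.43. gpb-2, a G protein beta subunit, fell by 0.64. Neither vhl-1 (−0.58, adjusted p = 0.0773, edgeR) nor gpb-1 (−0.18) passed in N2, and in affl-2 vhl-1 fell by 0.68. With library size alone fzr-1 did not pass in N2, while vhl-1, gpb-1 and gpb-2 fell there, and 0 of the 5 interactions passed with either scaling.

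Most other cytosolic chaperone genes rose with heat shock as well. Of 15 genes listed, 14 rose in N2 and 14 in affl-2, beside 9.52 and 10.6% of all genes. The median log2 changes were 1.42 and 0.97. With library size alone 12 rose in each, beside 5.92 and 6.04% of all genes. The 4 with the smallest p in N2 were hsp-110, a nucleotide exchange factor for HSP70 (3.26), dnj-13, an HSP40 (2.73), and a pair of genes for HSP70-binding BAG proteins, bag-1 (2.03) and unc-23 (3.56). In the interaction 4 of the 15 passed, all lower in affl-2, beside 0 of 8 CCT genes and 0.715% of all genes. They were hsp-110 (−1.2 ± 0.14, SE), dnj-13 (−1.01 ± 0.13) and, named after their values were seen, the HSP70 genes hsp-1 (−0.78 ± 0.14) and hsp-70. After heat shock 8 of the 15 were lower in affl-2, beside 1 of 8 CCT genes. The shares were 9.57% of all genes and 25.7% of the 490 abundant genes. Also named after their values were seen, the HSP90 cochaperone genes sti-1, cdc-37 and daf-41 rose in N2 by 0.57, 0.39 and 0.31, with interactions of 0.14, 0.05 and 0.09 that did not pass. dnj-19 gave 0.51 in N2 and 0.55 in affl-2.

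**Figure D5:**
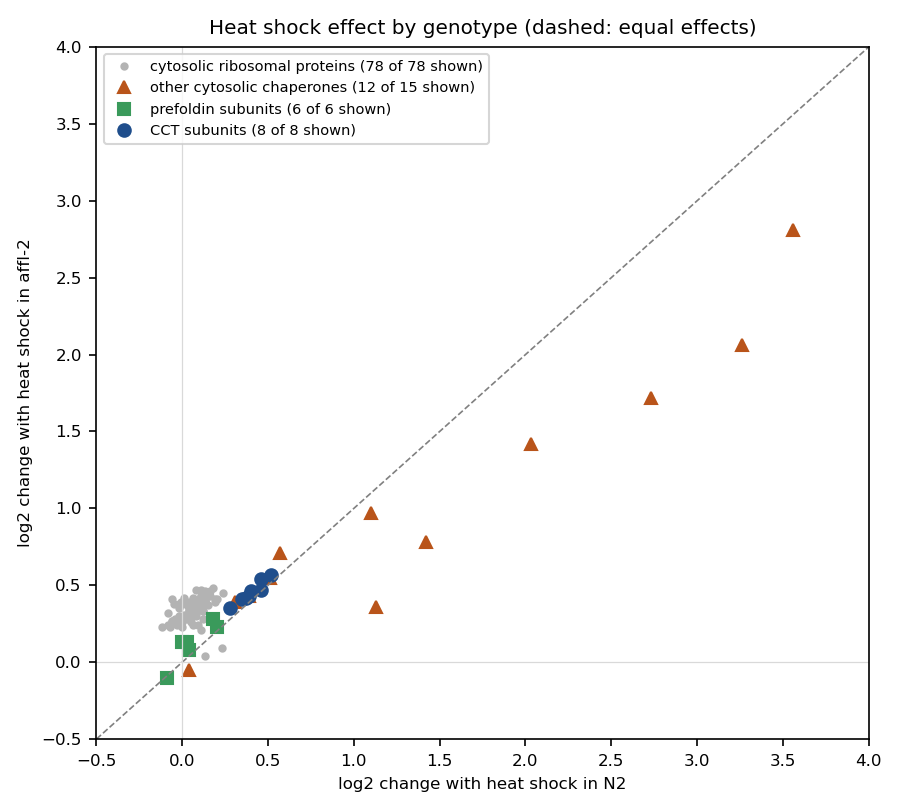
Log2 change with heat shock in N2 (x axis) and in affl-2 (y axis) for the CCT subunits, prefoldin subunits, other cytosolic chaperones and cytosolic ribosomal proteins, from edgeR with 3 libraries per group. The dashed line marks equal changes. The 8 CCT genes lie close to that line between 0.28 and 0.57 on both axes, and 3 of the 15 other chaperone genes fall beyond the axes and are not drawn.

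Ribosomal protein genes are another group of abundant housekeeping genes that serve protein synthesis. Of 78 tested, 0 rose with heat shock in N2 (median log2 change 0.08) and 33 rose in affl-2 (median 0.37, edgeR). Among the 490 abundant genes 19.2% rose in N2 and 27.8% in affl-2. The difference itself did not pass for any of the 78, with a median interaction of 0.29. With library size alone 0 rose in N2, where the median turned to −0.10, and 4 rose in affl-2 (median 0.22). Without heat shock 47 of the 78 were lower in affl-2 (median −0.41), beside 1 of 8 CCT genes (median −0.15) and 28.4% of the abundant genes, and with library size alone 6 of the 78 were lower (median −0.23). The 4 with the smallest p for heat shock in N2, rpl-4, rps-6, rpl-36 and rpl-11.1, gave 0.24, 0.19, 0.17 and 0.20 there, none of which passed (adjusted p = 0.124 for rpl-4).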

How the data were processed

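Per the submitters' processing notes, the authors made the tables with kallisto, whose version the sources used here do not state, from base calls converted with bcl2fastq 1.8.4, on build WBcel235. The deposited tables give estimated counts and TPM for 35862 transcripts in each of 12 libraries. The effective lengths in the deposited tables are 299 nt below the lengths of long transcripts, while the labels' protocols give fragments of 200 nt on average.

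Estimated counts were summed per gene and rounded. Of 22010 genes, 168 did not match the annotation and held 0.0544 to 0.0839% of a library's counts. After filterByExpr (minimum count 10) 15386 genes were tested, leaving 6624 untested. In R 4.3.3, edgeR 4.0.16 fitted the 4 group means with TMM scaling (8 residual degrees of freedom), with quasi-likelihood F tests and Benjamini-Hochberg adjustment over all genes tested. A gene passed at 0.05. SEs come from the F statistic. CPM use the TMM factors. The scripts were tested on simulated data. Alternatives used limma 3.58.1 and DESeq2 1.42.0.

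The CCT genes, the gene lists and the tests were chosen with earlier results of these data known. Named were all CCT, prefoldin and group I chaperonin genes, up to 4 genes of each other list with the smallest adjusted p for heat shock in N2, the 10 genes nearest in profile, and affl-2. Other genes are said to have been named otherwise. hsp-10 matched no gene symbol.

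Replicate numbers were taken from the titles or from the deposited files, where unheated affl-2 replicates 1 and 2 stand exchanged against the sample descriptions. Deviations from the group means (15176 genes) correlated over 0.1 in 18 of 18 same-number pairs by file and in 13 of 18 by title. By file, r was 0.1 to 0.35 in same-number pairs and −0.35 to 0.15 in other pairs. These ranges overlap, so the pairing is not certain. No 2 libraries of a group agreed within sampling noise (chi-square per gene 7.77 to 36.67).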

Additional observations from a re-analysis of the deposited data

How the results depend on the processing

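The rise of the CCT genes with heat shock kept its direction in both genotypes under every alternative run (other size factors, library size alone, no filter on low counts, offsets for transcript length, DESeq2, limma voom, fitting only the groups compared, replicate blocks, and each library left out). With library size alone 3 of 8 passed in N2 and 7 in affl-2, beside 28.6 and 23.1% of all genes. Leaving out each library gave 6 to 8 in N2 and 7 to 8 in affl-2, and fitting only the groups compared gave 6 in affl-2 (cct-3 and cct-7 did not pass).

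The genotype call of cct-8 was the least stable. The number of CCT genes passing fell from 1 to 0 without heat shock with library size alone, with no filter and with only the groups compared, and after heat shock with these and with transcript length offsets. It was 0 to 1 on leaving out each library at either temperature. The medians over the CCT genes changed sign under library size alone, to 0.03 and 0.14, while no member was called. The interaction gave 0 under every alternative. The causes were not tested.

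The replicate block, with either numbering, left the CCT counts of the 5 edgeR comparisons at 8, 8, 1, 1 and 0. In the ratio tests it gave 0 in place of 4 for heat shock and for genotype, where an adjusted p under 0.05 needs at least 6 of the 8 ratios at the smallest possible p. With the median of the other subunits, 2 ratios passed for genotype, and those of cct-6 and cct-7 reversed to −0.008 and −0.001. Leaving out each library gave 4 to 5 for heat shock and 3 to 5 for genotype, and TPM in place of counts gave the same 4 and 4 members.

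Over all genes, the heat shock counts of 3314 (N2) and 3300 (affl-2) became 4398 and 3561 with library size alone. The counts of 2150 (genotype without heat shock) and 3034 (after it) became 3386 and 5699 with library size alone and 3604 and 5155 with the block by file numbers, and fell to as few as 1220 and 1475 on leaving out 1 library. The interaction count of 110 became 211 with the DESeq2 test and 221 with that block.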

Other observations

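The reads of 6 CCT genes are divided by kallisto among 2 or more transcripts. For cct-8 the transcript Y55F3AR.3b held 20.6 ± 1.28% of the gene's TPM in unheated N2, 23.4 ± 4.96% in unheated affl-2 and 26.8 ± 3.26% in heated affl-2 (mean ± SD, n = 3). Its ranges overlapped between unheated and heated N2, at 19.8 to 22.1% and 19.7 to 25.1%. For cct-5 the transcript C07G2.3a.2 held 69.1 to 73.0% of the TPM as group means. For cct-7 the transcript T10B5.5a.2 held between 65.5 and 85.6% in the unheated N2 libraries. For cct-6 a single transcript, F01F1.8a.1, held at least 98.8% in every library. No test was run on these shares.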
